A study of Arabidopsis thaliana with 9 samples.

Results

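Arabidopsis seedlings exposed to the nitric oxide donor sodium nitroprusside (SNP) were set against seedlings given the nitric oxide scavenger cPTIO. The comparison takes the 3 SNP arrays and the 3 cPTIO arrays, 6 of the 9 arrays of the series, and tests 22746 of the 22810 probe sets on the array. The 64 probe sets with the prefix AFFX, which measure spike-ins and reference transcripts, were left out of the test and used to describe the arrays. The arrays were picked by their titles, but the comparison was chosen with earlier results of these data known.

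All 6 samples were whole seedlings of the ecotype Columbia-0, moved into treatment at 3 days of age, treated for 5 days and collected at 8 days. The SNP seedlings stood in open receiver dishes next to a separate donor dish holding 100 uM SNP, so the solution itself was not added to their dishes. The cPTIO seedlings received 1 mM cPTIO as a liquid in their own receiver dishes. Both outer dishes were sealed, and the remaining 3 arrays of the series, from untreated seedlings, were not part of the comparison. The agents differed in route, dose and chemistry as well as in their action on nitric oxide, and these cannot be told apart here. The titles call the samples biological replicates, but each treatment is described as receiver dishes placed together in a sealed dish, and it is not stated whether those dishes gave the 3 samples. If they did, the p-values cover the spread between dishes of a single exposure, part of which may be technical.

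Nitric oxide is a small gaseous signal that plants make and perceive during germination, root growth, defence and oxygen shortage. It reacts with haem and non-haem iron, with cysteine thiols and with superoxide, and phytoglobins remove it in plant cells. It also takes part in the breakdown of the group VII ethylene response factors, which switch on genes of low oxygen. Nitroprusside is an iron complex that carries a nitrosyl group and cyanide ligands, and releases nitric oxide most readily in light. cPTIO oxidises nitric oxide to nitrogen dioxide, so it removes the signal but leaves another reactive nitrogen species behind. RNA from whole seedlings mixes roots, hypocotyl and cotyledons, and a lower transcript level from fewer cells of a type cannot be told apart from less RNA per cell.

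The values are log2 expression values made by RMA, in which 1 unit is a doubling, and all differences below are SNP minus cPTIO on that scale. Array medians ran from 4.47 to 4.52. A group mean under 4.52 was treated as dim, its size as uncertain, and no linear fold is given for it. SNP replicates resembled each other more than cPTIO replicates did: the SD of the difference between a pair of arrays ran from 0.228 to 0.357 within SNP and from 0.313 to 0.579 within cPTIO. The widest pairs both included cPTIO replicate 3. That array was also lowest in hybridisation spike-ins, with BioB at 7.06, 7.14 and 7.18 on the SNP arrays against 7.08, 7.11 and 6.25 on cPTIO replicates 1, 2 and 3. The groups as a whole overlapped in BioB (exact permutation p = 0.3), BioC, BioD, cre, actin and GAPDH. The 3-prime minus 5-prime difference of actin, a measure of RNA integrity and labelling, was 2.93 ± 0.08 in SNP and 2.71 ± 0.05 in cPTIO (SD, n = 3 each). Its groups did not overlap, and the exact permutation p of 0.1 is the smallest that 3 arrays against 3 can give. For GAPDH the same measure was 0.16 ± 0.11 in SNP and 0.03 ± 0.1 in cPTIO, and the groups overlapped (exact permutation p = 0.2). Whether the difference in actin has a part in the results below was not tested.

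A small set of transcripts passed the test of SNP against cPTIO, more of them lower than higher in SNP. In limma's test 267 probe sets, 1.17% of those tested, had an adjusted p under 0.05 (Benjamini-Hochberg), which is what a call means in the following. Of these, 104 (0.457% of those tested) were higher in SNP and 163 (0.717%) were lower, so that 61.0% of the calls were lower. The median size of a called difference was 1.24, against a median standard error of 0.132 over all probe sets. The difference passed 1 log2 unit in 57 of the higher and 130 of the lower calls, and passed 2 units in 14 of the higher and 41 of the lower. The annotation paired 129 of the called probe sets with 1 gene, 59 higher and 70 lower, 8 with several genes and 130 with none. The lower group mean was dim in 100 calls, 28 of them higher in SNP and 72 lower. The called probe set with the widest difference, at -5.01, pairs with several genes and is left unnamed. In all 267 calls the arrays of SNP and cPTIO did not overlap, as they also did not in 21.2% of all probe sets. The number of calls does not give the number of transcripts that differed. In simulated data the script recovered 59 of 100 changes of 1 log2 unit and 89 of 100 changes of 2 units. A probe set without a call may therefore still differ.

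The number of calls depended on single arrays. When SNP replicate 1, 2 or 3 was left out, 0, 5 and 114 probe sets were called in that order. When cPTIO replicate 1, 2 or 3 was left out, there were 30, 2 and 637 calls in that order. Without SNP replicate 1, 2482 probe sets had an unadjusted p under 0.05, against 3644 with all 6 arrays. Of those 3644, 1906 were higher in SNP and 1738 lower, so the excess of lower values belongs to the called probe sets. Each of the 267 kept an unadjusted p under 0.05 in each of these fits; their direction could not turn, since their groups do not overlap. Fitting all 9 arrays, so that the untreated arrays lent their spread, gave 742 calls, 381 higher in SNP and 361 lower (48.7% lower), and 256 of the 267 were among them. The balance of higher and lower calls thus shifted with the arrays in the fit. With the replicate number as a block, 282 probe sets were called, and 159 of the 267 were among these.

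**Figure D1:**
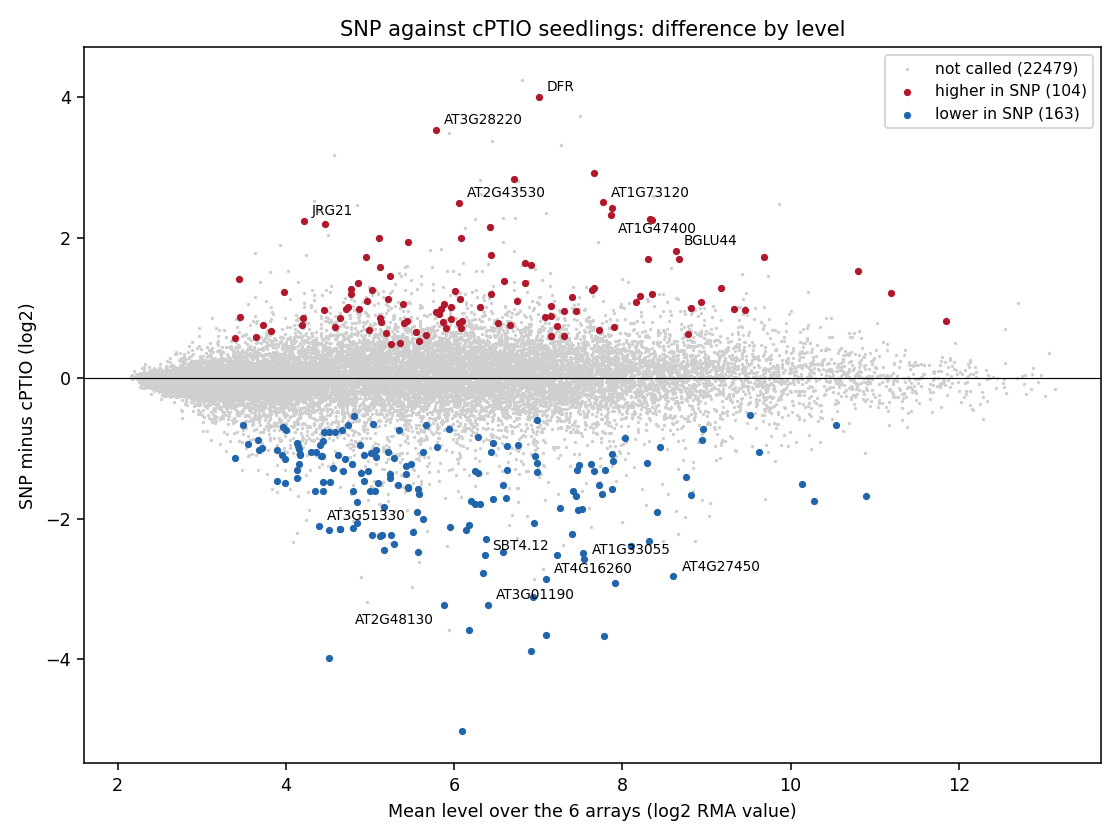
SNP minus cPTIO difference (log2) of 22746 probe sets, 1 point each, against the mean log2 RMA value over the 6 arrays. Red points are the 104 probe sets called higher in SNP, blue points the 163 called lower and grey points the others, with some of the named genes marked. The calls reach 4.00 for DFR on the upper side and -5.01 for an unnamed probe set on the lower side.

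The transcript with the largest called rise in SNP was DFR, dihydroflavonol reductase, the first enzyme of the branch that leads to anthocyanin pigments. It measured 9.45, 9.62 and 7.95 in SNP replicates 1, 2 and 3, against 5.19, 5.37 and 4.47 in cPTIO replicates 1, 2 and 3. All SNP arrays lay more than 2 units above all cPTIO arrays, and in both groups the array numbered 3 was the lowest. The difference was 4.00 ± 0.49 (SE; 95% interval 2.80 to 5.20; limma adjusted p = 0.0317), or 16.0-fold. The list of flavonoid and anthocyanin genes had 5 measured members of 17, and DFR was the only one called. UF3GT, a glycosyltransferase that decorates anthocyanins, measured 7.81, 8.75 and 6.57 in SNP against 5.28, 4.71 and 4.70 in cPTIO. Its groups were apart, but the difference of 2.81 ± 0.54 missed the threshold (adjusted p = 0.0856). AT5MAT, which adds malonyl groups to anthocyanins, differed by 1.75 (adjusted p = 0.181), and UGT78D2, a flavonoid 3-O-glucosyltransferase, by 0.78 (adjusted p = 0.339). BAN, the anthocyanidin reductase of the seed coat, lay at 2.98 in SNP and 3.05 in cPTIO, both dim. The median of the 5 was 1.75, against -0.016 over all probe sets.

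Beside DFR, the 15 largest rises among calls with 1 gene held genes of several unrelated kinds. AT3G28220, a protein with TRAF-like domains, measured 7.88, 7.83 and 6.94 in SNP against 4.03, 3.67 and 4.35 in cPTIO, a difference of 3.53 ± 0.30 (adjusted p = 0.0165) over a dim cPTIO mean. AT2G43530, a defensin-like peptide of the kind that defends seeds and leaves, measured 7.62, 7.55 and 6.73 in SNP against 4.91, 4.96 and 4.56 in cPTIO. It was 5.62-fold higher in SNP (2.49 ± 0.26; adjusted p = 0.0245). Another small defence peptide, the thionin THI2.2, was 2.55-fold higher (1.35 ± 0.13; adjusted p = 0.0201), but missed the threshold in the fit over all 9 arrays (adjusted p = 0.0569). JRG21, an oxygenase induced by jasmonate, measured 5.55, 5.80 and 4.64 in SNP against 3.25, 3.03 and 3.01 in cPTIO, where it was dim (2.24 ± 0.30; adjusted p = 0.0388).

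Lipases of the GDSL family, enzymes that act on lipids and cuticle polymers, were found on both sides, and no list of the whole family was counted. AT5G45950 measured 9.85, 9.75 and 8.86 in SNP against 7.08, 7.69 and 6.92 in cPTIO, 4.78-fold higher in SNP (adjusted p = 0.0442). AT1G75900, which belongs to the EXL lipases first found in the pollen coat, measured 7.18, 7.22 and 6.87 in SNP against 4.95, 5.40 and 4.92 in cPTIO. It was 4.00-fold higher (2.00 ± 0.17; adjusted p = 0.0163). The EXL lipases were made a list after its value was seen. Of 4 measured members of 6, 2 were called higher and none lower, where 0.457% of all probe sets were called higher; 1 of the 2 is the gene that prompted the list. The second was AT1G75880 at 0.76 (adjusted p = 0.0458, and 0.0817 with the replicate block), while AT1G75890 at 0.06 and AT1G75920 at 0.03 lay close to no difference. Outside the rule for named genes, AT3G16370 was 2.31-fold higher and AT3G14220 2.00-fold higher. AT1G74460 of the same family was among the 15 largest decreases.

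Of the remaining large rises, AT1G80130, a tetratricopeptide repeat protein, was 4.83-fold higher (2.27 ± 0.32; adjusted p = 0.0420). BGLU44, a beta-glucosidase that splits sugar conjugates, measured 9.69, 9.45 and 9.49 in SNP against 7.51, 7.66 and 8.02 in cPTIO, 3.52-fold higher (adjusted p = 0.0165). AT4G23680, a protein of the major latex protein family, was 2.89-fold higher (adjusted p = 0.0454), and AT1G70200, an RNA-binding protein, rose by 1.46 over a dim cPTIO mean (adjusted p = 0.0451). Both missed the threshold with the replicate block, at adjusted p = 0.0787 and 0.0688. AT5G06190 differed by 1.72 (adjusted p = 0.0397) and AT1G73040, a jacalin-type lectin, by 1.36 (adjusted p = 0.0219), each over a dim cPTIO mean. SNP replicate 3 was the lowest of its group in 11 of these 15 genes, and cPTIO replicate 3 the lowest of its group in 9. Without SNP replicate 1 none of the 15 was called (adjusted p from 0.107 to 0.186), nor without SNP replicate 2 (0.113 to 0.232) or cPTIO replicate 2 (0.0509 to 0.12). Leaving out cPTIO replicate 1 kept 1 of the 15 (0.049 to 0.146), leaving out SNP replicate 3 kept 8 (0.0176 to 0.0837), and leaving out cPTIO replicate 3 kept 13 (0.00969 to 0.0534).

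Genes that respond to iron shortage gave a further pair of the largest rises. AT1G47400 encodes a short IRON MAN peptide, which signals iron shortage between shoot and root. It measured 9.47, 9.27 and 8.33 in SNP against 6.99, 6.57 and 6.54 in cPTIO, 5.01-fold higher in SNP (2.32 ± 0.32; adjusted p = 0.0400). AT1G73120, whose transcript accumulates under iron shortage, was nearly even over the SNP arrays at 9.06, 8.97 and 9.03, against 6.68, 5.89 and 6.99 in cPTIO. It was 5.67-fold higher (2.50 ± 0.28; adjusted p = 0.0279).

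A list of 36 iron-deficiency genes, written after these values had been seen, had 17 measured loci on 18 probe sets. Of these 18, 3 were called higher and none lower, where 0.457% and 0.717% of all probe sets were. The 3 include AT1G47400 and AT1G73120, which prompted the list. In all, 9 lay on the higher and 9 on the lower side, and the median was 0.07. In 9 probe sets the mean over the 6 arrays lay above the array medians. Of these 9, 6 were on the higher and 3 on the lower side. Their median was 0.65, against 0.04 over all probe sets that bright. A probe set dim in cPTIO can pass that filter through its SNP level, or the reverse, so nothing is drawn from this subset. The third call was BGLU42, a root beta-glucosidase linked to release of coumarins, at 6.26, 6.38 and 6.16 in SNP against 5.28, 5.55 and 5.58 in cPTIO. The groups stood apart by 0.80 ± 0.12 (adjusted p = 0.0437, and 0.0655 with the replicate block). Groups did not overlap in 6 probe sets on the higher and 5 on the lower side, against 10.1% and 11.1% of all probe sets. Among transcription factors of the response, BHLH101 measured 6.74, 6.08 and 3.74 in SNP against 3.83, 3.21 and 3.42 in cPTIO. SNP replicate 3 lay within the cPTIO range, and the difference of 2.03 was not called (adjusted p = 0.275). PYE, the regulator POPEYE, differed by 0.65 (adjusted p = 0.219). AT5G05250 of the same list differed by 1.49 (adjusted p = 0.0809), and was called with the replicate block (0.0436). AT3G12900, which makes the iron-binding coumarin fraxetin, lay at 4.19 in SNP and 4.01 in cPTIO, both dim. AT1G74770, a ubiquitin ligase that turns over iron regulators, had one probe set at -1.11 (adjusted p = 0.139) and one dim on all arrays at -0.11. None of the 3 called genes was called without SNP replicate 1 (adjusted p from 0.145 to 0.186), SNP replicate 2 (0.159 to 0.222), cPTIO replicate 1 (0.0928 to 0.112) or cPTIO replicate 2 (0.0509 to 0.114). Leaving out SNP replicate 3 kept 1 of them, and leaving out cPTIO replicate 3 kept all 3.

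**Figure D2:**
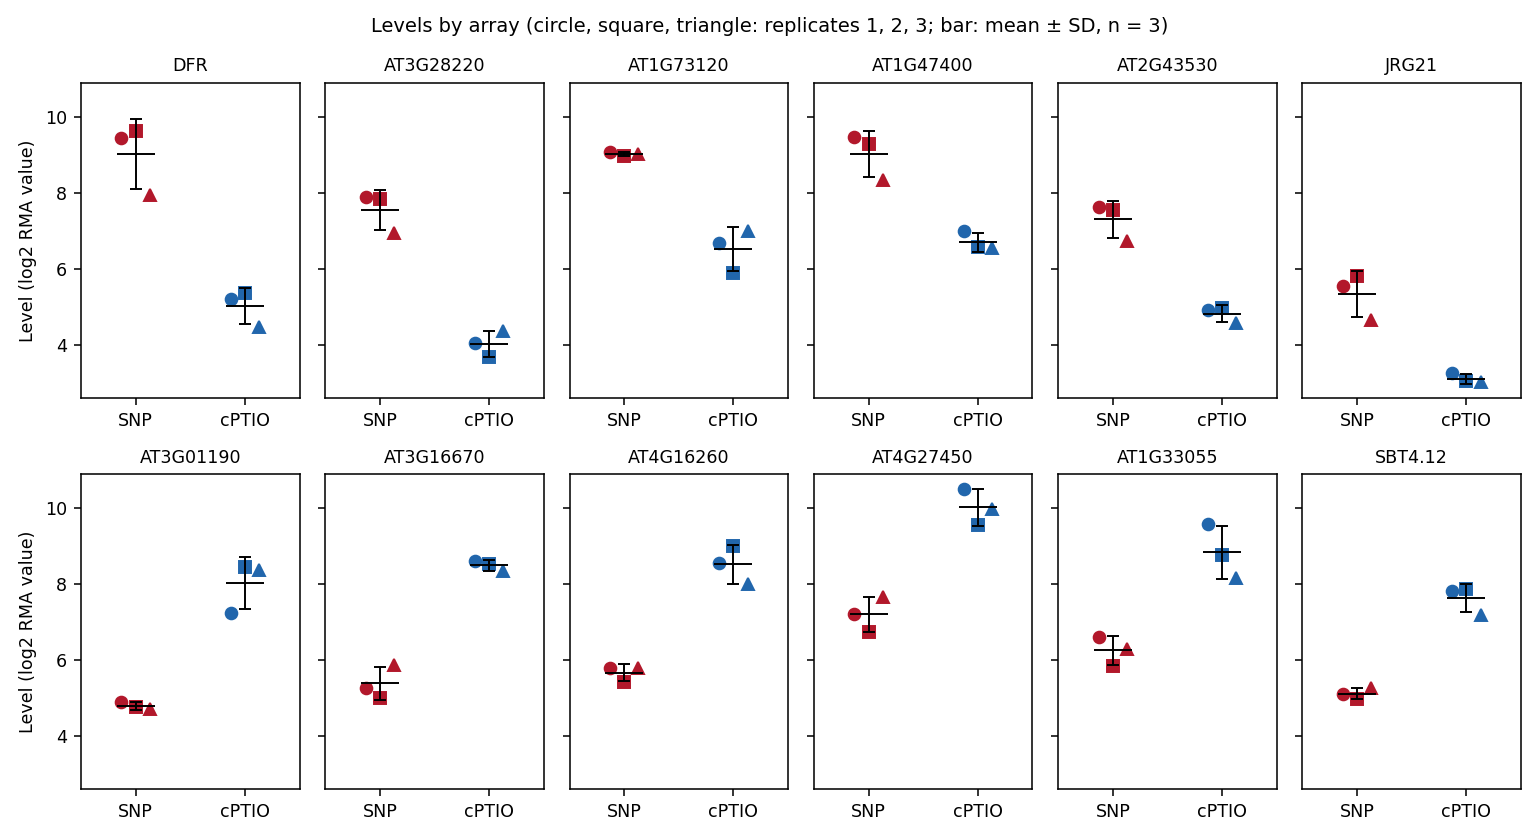
Levels (log2 RMA value) of 12 named genes on each array, SNP in red on the left and cPTIO in blue on the right of each panel; circles, squares and triangles are replicates 1, 2 and 3, and bars are mean ± SD (n = 3). The upper row shows genes higher in SNP, such as DFR with 7.95 to 9.62 in SNP against 4.47 to 5.37 in cPTIO. The lower row shows genes lower in SNP, such as AT3G01190 with 4.72 to 4.90 against 7.23 to 8.46.

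The 15 largest decreases in SNP among calls with 1 gene included lipid transfer proteins, wall glycoproteins, wall hydrolases and proteases. No list of wall proteins as a whole was counted. The list of expansins and xyloglucan endotransglucosylases, which act on the wall, had 10 probe sets and no call. Of these, 3 lay on the higher and 7 on the lower side, with a median of -0.14. AT2G48130, a lipid transfer protein held to the membrane by a GPI anchor, measured 4.55, 4.50 and 3.76 in SNP against 7.86, 7.42 and 7.19 in cPTIO. The difference was -3.22 ± 0.27 (adjusted p = 0.0163) against a dim SNP mean. A related anchored lipid transfer protein, AT3G22620, measured 6.49, 6.67 and 5.70 in SNP against 9.09, 8.75 and 8.47 in cPTIO, a difference of -2.48 ± 0.29 (adjusted p = 0.0290). Such proteins carry lipids towards cuticle and suberin.

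AT3G16670, of the family of the pollen allergen Ole e 1 and extensins, measured 5.27, 5.01 and 5.87 in SNP against 8.60, 8.53 and 8.34 in cPTIO. The cPTIO arrays were within 0.3 units of one another and at least 2 units above every SNP array. The difference was -3.11 ± 0.23 (adjusted p = 0.0133). AT4G38080, a hydroxyproline-rich glycoprotein of the kind that builds the wall, differed by -2.77 ± 0.23 (adjusted p = 0.0163). AT4G16260, a beta-1,3-glucanase that digests callose and fungal walls, measured 5.78, 5.41 and 5.80 in SNP against 8.55, 9.01 and 7.99 in cPTIO, a difference of -2.85 ± 0.27 (adjusted p = 0.0198). AT5G62340, an inhibitor of the pectin methylesterases that stiffen pectin, differed by -2.14 ± 0.13 (adjusted p = 0.0132) against a dim SNP mean.

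Both proteases among them belong to families that are largely secreted. The subtilase SBT4.12 measured 5.10, 4.97 and 5.25 in SNP against 7.81, 7.86 and 7.19 in cPTIO, a difference of -2.52 ± 0.20 (adjusted p = 0.0163). AT3G51330, an aspartyl protease, measured 3.40, 3.25 and 3.38 in SNP against 5.52, 5.31 and 5.51 in cPTIO. Its difference of -2.10 ± 0.10 had the lowest adjusted p of the named genes, 0.00734, but its SNP level was dim. The defensin-like AT4G22212 differed by -2.47 ± 0.26 (adjusted p = 0.0242), opposite in direction to the defensin-like AT2G43530. The GDSL lipase AT1G74460 differed by -2.18 ± 0.13 (adjusted p = 0.0132) and AT1G12080, related to vacuolar calcium-binding proteins, by -2.25 ± 0.27 (adjusted p = 0.0311, and 0.0572 with the replicate block), both against a dim SNP mean. None of the 15 largest decreases was called without SNP replicate 1 (adjusted p from 0.107 to 0.169). Leaving out SNP replicate 2 kept 2 of them (0.0487 to 0.232) and leaving out SNP replicate 3 kept 9 (0.0119 to 0.114). Among cPTIO arrays, 4 were kept when replicate 1 was left out (0.00825 to 0.103), 1 when replicate 2 was (0.041 to 0.124) and 15 when replicate 3 was (0.00647 to 0.0367).

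AT3G45710 belongs to the NPF2 group of membrane transporters, a cluster of neighbouring genes whose members move nitrate or chloride in roots. It measured 3.49, 3.91 and 3.80 in SNP against 6.09, 6.12 and 5.38 in cPTIO, a difference of -2.13 ± 0.23 (adjusted p = 0.0279). The cluster was made a list after this value was seen, and 2 of its 5 measured members were called lower and none higher, where 0.717% of all probe sets were called lower; 1 of the 2 prompted the list. The second, AT3G45700, measured 3.69, 3.64 and 3.69 in SNP against 4.55, 4.59 and 4.66 in cPTIO, a difference of -0.93 ± 0.07 (adjusted p = 0.0163). The SNP means of both were dim. Their neighbours AT3G45680, AT3G45690 and AT3G45720 differed by -0.24, -0.02 and 0.07, so the cluster did not move as a block. Neither was called without SNP replicate 1, SNP replicate 2, cPTIO replicate 1 or cPTIO replicate 2, with adjusted p from 0.0561 to 0.141 over these fits.

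Class III peroxidases, secreted haem enzymes that use hydrogen peroxide to cross-link lignin, suberin and extensins or to loosen the wall, included one of the largest decreases. AT3G01190 measured 4.90, 4.76 and 4.72 in SNP against 7.23, 8.46 and 8.36 in cPTIO. The SNP arrays were close together and the cPTIO arrays were all above 7, a difference of -3.22 ± 0.33 (adjusted p = 0.0219), or 9.34-fold lower in SNP. The whole family was then listed, with 73 loci of which 55 were measured on 1 probe set each, and 27 of these had a mean over the 6 arrays above the array medians. Of the 55, 4 were called lower, including AT3G01190, which prompted the list, and 1 higher, where 0.717% and 0.457% of all probe sets were. With the replicate block 2 were called lower and none higher. In all, 42 lay on the lower and 13 on the higher side, with a median of -0.15. Among the 27 brighter members these numbers were 20 and 7, with a median of -0.43 against 0.04 over all probe sets that bright. A member dim in SNP can pass that filter through its cPTIO level, or the reverse, so nothing is drawn from this subset. Among all 55, groups did not overlap in 16 on the lower and 8 on the higher side. Over all probe sets 11.1% and 10.1% did not, so the higher count is near that share.

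AT5G64100 measured 8.12, 7.96 and 7.90 in SNP against 9.57, 9.93 and 9.44 in cPTIO, 3.15-fold lower in SNP (adjusted p = 0.0186). AT4G30170 measured 7.14, 6.58 and 7.09 in SNP against 8.34, 8.80 and 8.63 in cPTIO, 3.14-fold lower (adjusted p = 0.0290, and 0.0556 with the replicate block). AT2G39040 differed by -1.08 ± 0.16 against a dim SNP mean (adjusted p = 0.0451, and 0.0706 with the block). These 3 genes separated the groups without a large spread in either. The family did not move in one direction: AT2G22420 measured 5.53, 5.58 and 5.11 in SNP against 4.12, 4.07 and 4.24 in cPTIO, higher by 1.27 ± 0.14 over a dim cPTIO mean (adjusted p = 0.0290, and 0.0520 with the block).

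Other large peroxidase differences were not called, and in these the cPTIO arrays lay far from one another. AT4G11290 measured 4.28, 4.15 and 4.39 in SNP against 6.96, 7.71 and 5.98 in cPTIO (-2.61; adjusted p = 0.0547), and AT5G14130 differed by -1.88 (adjusted p = 0.0757), both from a dim SNP mean. On the other side, AT4G36430 measured 7.24, 7.75 and 7.15 in SNP against 5.45, 5.95 and 3.97 in cPTIO (2.26; adjusted p = 0.117). AT5G51890 at 0.50 (adjusted p = 0.0545) and AT1G71695 at 0.44 (adjusted p = 0.0835) were small differences with little spread. None of the 5 called peroxidases was called without SNP replicate 1 (adjusted p from 0.107 to 0.145), SNP replicate 2 (0.125 to 0.208) or cPTIO replicate 2 (0.054 to 0.122). Leaving out SNP replicate 3 or cPTIO replicate 1 kept 1 each, and leaving out cPTIO replicate 3 kept 4.

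**Figure D3:**
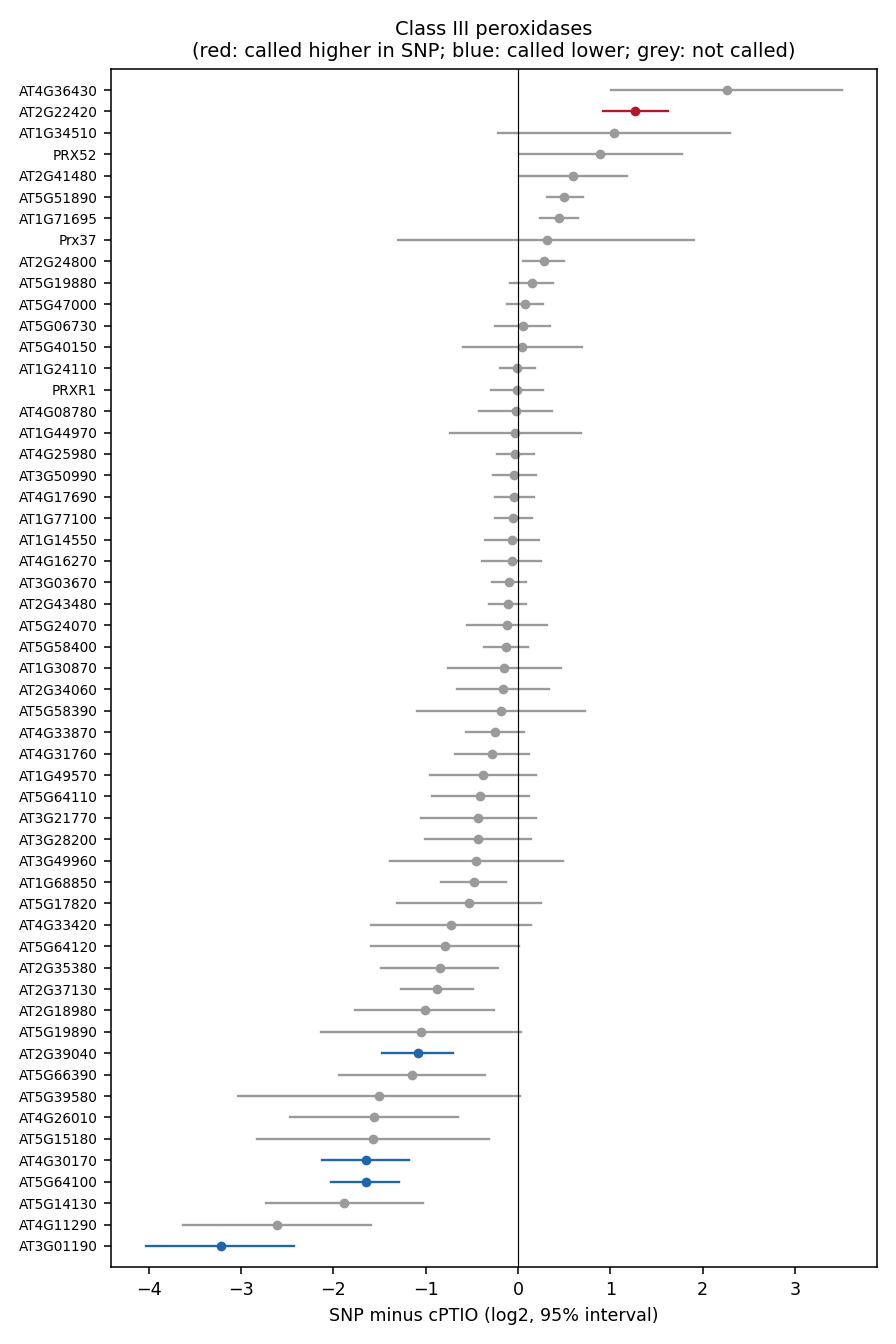
SNP minus cPTIO difference (log2) of the 55 measured class III peroxidases, ordered by size; points are differences and lines their 95% intervals from limma, with n = 3 arrays per group. Red is called higher in SNP (AT2G22420), blue is called lower (4 genes) and grey is not called. The differences run from -3.22 to 2.26, with 42 of 55 on the lower side.

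Genes of the low-oxygen response lay almost all on the lower side in SNP. AT4G27450, which is strongly induced when oxygen runs short, measured 7.20, 6.73 and 7.67 in SNP against 10.51, 9.56 and 9.97 in cPTIO. Every SNP array was more than 1.5 units below every cPTIO array, a difference of -2.82 ± 0.32 (adjusted p = 0.0290), or 7.05-fold lower. AT1G33055, of unknown function, measured 6.61, 5.84 and 6.30 in SNP against 9.57, 8.76 and 8.15 in cPTIO, 5.96-fold lower (adjusted p = 0.0488). That p was close to the threshold, and the gene was not called with robust variances (0.0542) or with quantile normalisation of the 6 arrays (0.0510).

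These 2 genes belong to a core set whose transcripts rise at low oxygen in many cell types. A list of 46 such genes, written after the values had been seen, had 22 measured members. Of the 22, 3 were called lower and none higher, where 0.717% and 0.457% of all probe sets were. The 3 include AT4G27450 and AT1G33055, which prompted the list. In all, 20 lay on the lower and 2 on the higher side, and the median was -1.16 against -0.016 over all probe sets. Groups did not overlap in 15 on the lower and 0 on the higher side, where 11.1% and 10.1% of all probe sets did not. The third call was AT3G03270, a universal stress protein, at 7.91, 7.92 and 8.05 in SNP against 9.10, 8.92 and 8.79 in cPTIO (-0.98 ± 0.11; adjusted p = 0.0279, and 0.0536 with the replicate block). The mean over the 22 was 5.03, 4.94 and 5.17 on SNP replicates 1, 2 and 3, against 6.52, 6.39 and 6.03 on cPTIO replicates 1, 2 and 3. All SNP arrays lay below all cPTIO arrays in that mean, in which array 3 was the highest of SNP and the lowest of cPTIO.

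Some members that were not called varied widely over the cPTIO arrays. AT1G19530, another gene induced by low oxygen, measured 2.77, 3.04 and 4.32 in SNP against 4.79, 6.13 and 8.75 in cPTIO (-3.18; adjusted p = 0.219). AT4G39675 measured 4.53, 4.05 and 4.49 in SNP against 5.66, 6.69 and 8.10 in cPTIO (-2.46; adjusted p = 0.132), again highest on cPTIO replicate 3. AT4G33560 measured 5.83, 5.25 and 6.06 in SNP against 8.45, 7.95 and 6.57 in cPTIO (-1.94; adjusted p = 0.150), lowest on cPTIO replicate 3. So cPTIO replicate 3 did not deviate in one direction over these genes. Of the fermentation enzymes, PDC2, a pyruvate decarboxylase, lay at 6.70 ± 0.27 in SNP and 7.31 ± 0.13 in cPTIO (-0.61; adjusted p = 0.150), and AT4G17260, lactate dehydrogenase, differed by -0.60 (adjusted p = 0.319). AT3G10040, the transcription factor HRA1 that restrains the response, differed by -1.22 (adjusted p = 0.322), and the calmodulin-like CML38 by -0.89 (adjusted p = 0.279). None of the 3 called genes was called without SNP replicate 1 (adjusted p from 0.145 to 0.169), SNP replicate 2 (0.138 to 0.232), cPTIO replicate 1 (0.0756 to 0.102) or cPTIO replicate 2 (0.0721 to 0.124). Leaving out SNP replicate 3 kept 1, and leaving out cPTIO replicate 3 kept all 3.

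**Figure D4:**
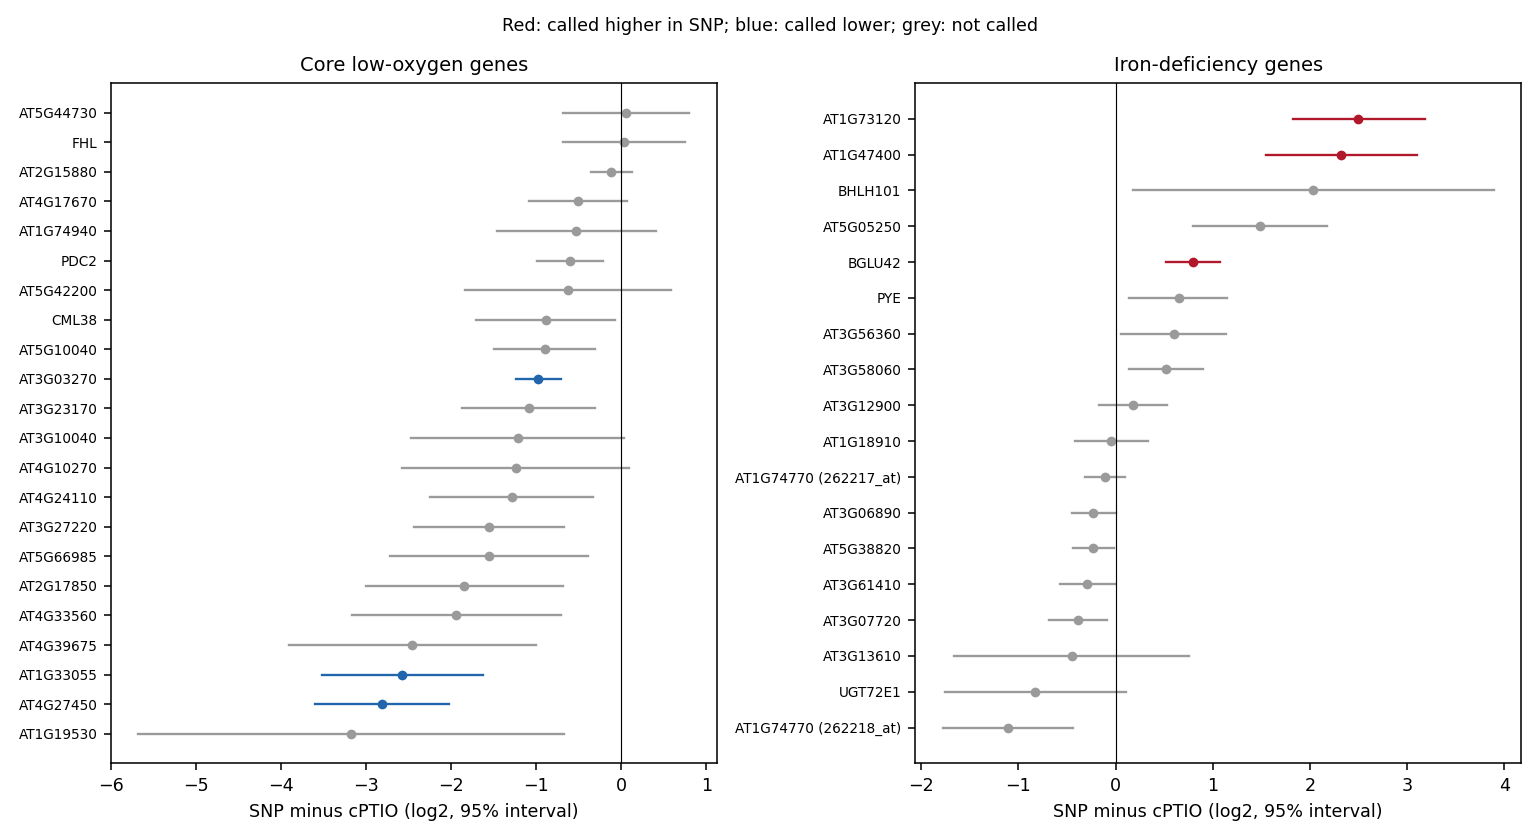
SNP minus cPTIO difference (log2) of the 22 measured core low-oxygen genes (left) and the 18 probe sets of iron-deficiency genes (right); points are differences and lines their 95% intervals from limma, n = 3 arrays per group. On the left 20 of 22 lie below 0, 3 of them called. On the right 9 lie above and 9 below 0, and the 3 called are all above.

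The 36 gene lists of the naming rule, the flavonoid list among them, held 555 loci, of which 81 were measured with a single-gene annotation. In 10 of the 36 lists no member was measured. Of the 81, 1 was called higher, which is DFR, described above, and 2 were called lower. Each was in a different list, where 1.17% of all probe sets were called. WRKY22, a defence transcription factor, measured 3.83, 3.88 and 4.35 in SNP against 5.50, 5.44 and 5.06 in cPTIO. The difference was -1.31 ± 0.19 (adjusted p = 0.0432) against a dim SNP mean. This gene missed the threshold with the replicate block (adjusted p = 0.0785) and with all 9 arrays (0.157). The other measured members of that list were also on the lower side but not called: WRKY53 at -0.83, WRKY6 at -0.59 and the zinc finger factor STZ at -0.37. AT4G22460, one of the EARLI1-type lipid transfer proteins, differed by -1.31 ± 0.15 (adjusted p = 0.0290). In the same list AT1G62510 differed by -1.97 (adjusted p = 0.256, and 0.0247 with the replicate block) and AT4G12490 by 1.11 (adjusted p = 0.724). With dim probe sets left out, that list held no call.

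AT4G12490 shows how far single arrays could depart, with 9.32, 8.58 and 8.69 in SNP against 9.86, 8.53 and 4.88 in cPTIO. Similarly SAG29, a sugar transporter of senescing tissue, measured 8.28, 8.14 and 4.16 in SNP against 7.22, 7.67 and 3.85 in cPTIO. In SAG29 the arrays numbered 3 stood apart in both groups.

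Several larger differences in lists without a call are given as values. ICL, isocitrate lyase of the glyoxylate cycle that turns seed oil into sugar, measured 11.46, 11.40 and 10.45 in SNP against 10.20, 7.79 and 7.89 in cPTIO (2.48; adjusted p = 0.175). GSTU25, a stress-induced glutathione transferase, measured 8.00, 8.96 and 9.09 in SNP against 6.53, 7.42 and 6.27 in cPTIO (1.95; adjusted p = 0.0974). COR47, a dehydrin of cold and drought, measured 7.96, 6.93 and 7.10 in SNP against 9.09, 9.62 and 10.22 in cPTIO (-2.31; adjusted p = 0.0580). XTH19, which cuts and rejoins wall xyloglucan, measured 9.34, 9.06 and 9.68 in SNP against 7.19, 8.09 and 8.09 in cPTIO (1.56; adjusted p = 0.0787). In each of these 4 genes the groups did not overlap, yet the spread within groups was too wide for a call in the main fit. With all 9 arrays in the fit, each of their 4 lists held 1 call, in the direction of the gene given here. With the replicate block only the list of XTH19 held 1. These counts are by list, so the called member need not be the gene given here. In the list of ICL, the groups of AIM1 also did not overlap (0.57, adjusted p = 0.0713 in the main fit).

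Markers of organs were thinly covered. EXPA7, an expansin of root hair cells and the only measured member of 18 root markers, lay at 5.32, 5.39 and 4.66 in SNP against 5.72, 5.52 and 5.60 in cPTIO (-0.49; adjusted p = 0.324). EXPA18, the other root hair expansin, lay at 5.15 ± 0.27 in SNP and 5.65 ± 0.27 in cPTIO (adjusted p = 0.296). Of 15 shoot and leaf markers 4 were measured. SPCH, MUTE and FMA, which act in succession in the stomatal lineage, differed by -0.21, 0.14 and 0.06, and CLV3 of the shoot meristem by -0.04. SPCH, MUTE and CLV3 were dim in both groups. The groups of EXPA7 did not overlap, and the part of root hair cells in the lower values of wall and peroxidase genes was not tested.

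Transcripts of the chloroplast genome held no call. Of their 69 probe sets, 62 lay on the higher and 7 on the lower side, with a median of 0.42. Groups did not overlap in 22 on the higher and 1 on the lower side, where 10.1% and 11.1% of all probe sets did not. Calls appeared in other fits, all of them higher: 3 with all 9 arrays, 7 with array weights, 1 with a random replicate block, 6 without cPTIO replicate 3 and 4 without both arrays numbered 3. All 4 probe sets of the plastid-encoded RNA polymerase were on the higher side, with a median of 0.74, as were all 15 of ribosomal proteins (0.53). The medians were lower for the NADH dehydrogenase-like complex (0.42 over 10), ATP synthase (0.23 over 6), photosystem II (0.18 over 15), cytochrome b6f (0.13 over 6) and photosystem I (0.12 over 5).

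The polymerase subunit rpoC2 measured 7.66, 7.70 and 7.56 in SNP against 6.17, 6.86 and 6.76 in cPTIO (1.04; adjusted p = 0.0762, and 0.0289 with all 9 arrays). The transcript ycf3, for an assembly factor of photosystem I, measured 7.48, 7.14 and 7.39 in SNP against 5.64, 5.94 and 6.69 in cPTIO (1.25; adjusted p = 0.111, and 0.0185 without cPTIO replicate 3). The large subunit of Rubisco, rbcL, measured 9.17, 8.94 and 9.57 in SNP against 8.15, 8.54 and 7.59 in cPTIO (1.13; adjusted p = 0.135). In these 3 transcripts the groups were apart. The mean over the 69 probe sets was 8.76, 8.60 and 8.56 on the SNP arrays against 8.07, 8.12 and 8.53 on the cPTIO arrays, so that cPTIO replicate 3 lay next to the SNP arrays and replicates 1 and 2 below them. Whether the 3-prime minus 5-prime difference of actin, given above, has a part in these values was not tested.

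The list of nuclear light-harvesting genes had 3 measured members, with no call and a median of 0.06. The list of other nuclear photosynthesis genes also had 3, with no call and a median of -0.26. Among nuclear genes, chosen after their values were seen, CRR21 and LPA66 encode pentatricopeptide repeat proteins that edit chloroplast transcripts. No list of that family was counted. CRR21 measured 5.82, 5.61 and 5.53 in SNP against 4.30, 4.77 and 4.12 in cPTIO, where its mean was dim. Its difference was 1.26 ± 0.19 (adjusted p = 0.0473, and 0.0556 with the replicate block). LPA66 lay at 5.97 ± 0.10 in SNP and 5.36 ± 0.05 in cPTIO (0.61; adjusted p = 0.0420, and 0.0666 with the block). Probe sets of the mitochondrial genome leaned the other way, with 19 of 23 on the lower side, a median of -0.24 and no call. The 23 stood for 16 genes, since nad1 and nad5 had several probe sets each, so they are not separate genes. Groups did not overlap in 9 probe sets on the lower and 0 on the higher side, where 11.1% and 10.1% of all probe sets did not. The mean over the 23 was 3.94, 3.98 and 4.10 on the SNP arrays against 4.42, 4.09 and 4.26 on the cPTIO arrays. These probe sets were mostly dim, and in that mean the groups overlapped. Of the 23, cox2, a subunit of cytochrome oxidase, differed by -0.76 (adjusted p = 0.232).

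**Figure D5:**
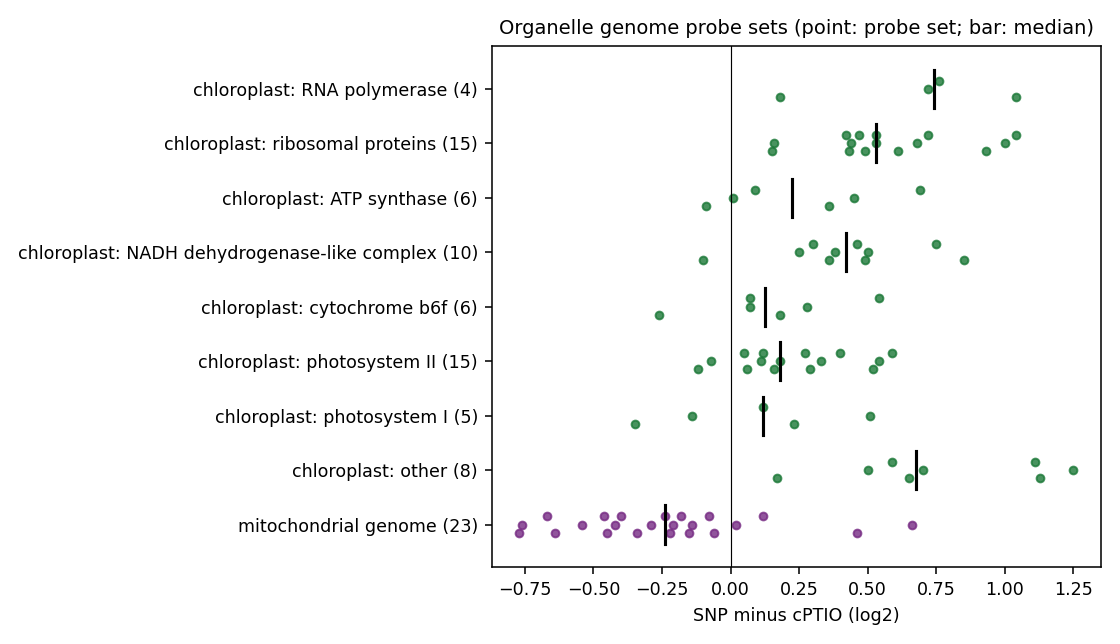
SNP minus cPTIO difference (log2) of 69 probe sets of the chloroplast genome by function (green) and 23 of the mitochondrial genome (purple), 1 point per probe set, with the median of each row as a black bar and the number of probe sets in brackets. All 4 polymerase and all 15 ribosomal protein probe sets lie above 0, and 19 of 23 mitochondrial ones lie below. None was called.

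Some further called genes, picked for a known role after their values were seen, fill in the lower side. MSRB9, a methionine sulfoxide reductase that repairs oxidised protein, measured 7.23, 7.27 and 7.39 in SNP against 8.35, 8.48 and 8.59 in cPTIO, 2.27-fold lower in SNP (adjusted p = 0.0163). APS4, an ATP sulfurylase that activates sulfate, was 2.16-fold lower (adjusted p = 0.0311), and the sulfurtransferase STR18 was 2.38-fold lower (adjusted p = 0.0416, and 0.0659 with the replicate block). RING1, a ubiquitin ligase linked to cell death in defence, was 2.95-fold lower (adjusted p = 0.0163), and the subtilase SBT3.5 was 2.47-fold lower (adjusted p = 0.0253). AT4G25250, a second pectin methylesterase inhibitor, differed by -1.41 against a dim SNP mean (adjusted p = 0.0194). The jacalin-type lectins AT1G52060 and AT1G52050, which have adjacent locus numbers, differed by -1.23 (adjusted p = 0.0382) and -1.14 (adjusted p = 0.0207), opposite in direction to the lectin AT1G73040.

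On the higher side, chosen in the same way, GPDHC1, a cytosolic glycerol-3-phosphate dehydrogenase, measured 7.23, 7.29 and 7.36 in SNP against 6.08, 6.49 and 6.04 in cPTIO, 2.14-fold higher (adjusted p = 0.0329, and 0.0517 with the block). The carboxypeptidase scpl29 measured 8.05, 8.03 and 7.85 in SNP against 6.84, 6.92 and 6.69 in cPTIO, 2.23-fold higher (adjusted p = 0.0186). LCR67, another defensin-like peptide, differed by 1.23 over a dim cPTIO mean (adjusted p = 0.0290). Of the 3 defensin-like peptides described, AT2G43530 and LCR67 were thus higher in SNP and AT4G22212 was lower. Over all 267 calls, none passed without SNP replicate 1 (adjusted p from 0.107 to 0.207), which holds for these genes too.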

How the data were processed

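Total RNA was the material taken from each sample, biotin was the label, and each sample was hybridised to 1 Affymetrix array. The deposited table holds log2 expression values per probe set; they were made with RMA, per the submitters' processing notes, which list limma too and no versions. RMA subtracts background, forces the arrays to a common distribution and summarises each set of probes, so a shift common to most transcripts is largely lost. Probe intensities and detection calls were not used here. With 3 arrays a group, the number of arrays limits precision.

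Of 22810 probe sets, 64 AFFX controls were set aside. The test was limma 3.58.1 (R 4.3.3) on the 3 SNP and 3 cPTIO arrays with group as the only term, two-sided, with Benjamini-Hochberg adjustment over 22746 probe sets; the script was tested on simulated data. Intervals are 95% moderated intervals. Control transcripts were compared by exact two-sided permutation tests. Python 3.11.15 and matplotlib 3.10.9 drew the figures.

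The platform annotation paired 13513 probe sets with 1 gene, 503 with several and left 8730 unlisted; 13436 of the first matched RefSeq (assembly TAIR10.1, used for names only). Many well-known genes are unlisted here. Mitochondrial transcripts were taken from the annotation's symbols. No source used here names the genome build of the array, so no coordinates are printed.

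The comparison, the members and the lists were chosen with earlier results of these data known. The rule for named genes took the 15 largest called differences in each direction with groups that do not overlap and 1 gene, every called member of 36 gene lists, for lists without a call at most 4 members as values, and the AFFX controls. A further 5 lists (class III peroxidases, core low-oxygen genes, iron-deficiency genes, NPF2 cluster, EXL lipases) and the genes so marked in the text were chosen after the values were seen.

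The labels number the replicates 1 to 3 in both groups. Deviations of same-numbered arrays from their group means correlated at 0.257, 0.305 and 0.417, each over 0.1. Pairs of unlike number reached 0.187 (SNP 2 with cPTIO 1) and 0.116 (SNP 1 with cPTIO 2), and the others were below 0, so the pairing is assumed from the data and not shown. The main fit has no block; values with the replicate block are given in the text where they change a call. The block, all 9 arrays, array weights, other variance priors, other normalisations, filters and leaving out arrays were alternatives.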

Additional observations from a re-analysis of the deposited data

How the results depend on the processing

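The total of 267 calls (104 higher and 163 lower in SNP) ranged from 235 to 319 with the replicate block (282; 114 higher, 168 lower), an intensity trend, robust variances, median centring, quantile normalisation, dim probe sets left out, or s_at and x_at sets left out. It was 742 with all 9 arrays (381 higher, 361 lower), 495 with a random replicate block (228 and 267), 967 with array weights (448 and 519) and 575 without both arrays numbered 3 (267 and 308). Leaving out 1 array at a time gave 0 to 637 calls, 0 to 271 higher and 0 to 366 lower; a fit then has 2 arrays in that group. The share of lower calls was 61.0%, and 48.7% with all 9 arrays. For 40 named probe sets, 674 values under alternatives held 471 kept calls; their groups do not overlap, so leaving out an array could not change a sign. Of the 203 lost calls, 175 came among 240 values with 1 array left out and 28 among 434 others. The cause of these shifts was not tested. Dim group means, array number and 2 groups of 3 limit what the sizes and p-values can bear.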
